A study of Rattus norvegicus with 16 samples.

Results

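CD8+ cells that had infiltrated the glomeruli of nephritic Wistar Kyoto (WKY) rats were split by their surface level of RT1B, and the arrays labelled RT1B+ were compared with those labelled RT1Blow. The comparison rests on 4 of the 16 arrays of the study, 2 per label, all on 1 slide, and the arrays were taken by their labels alone. All 16 arrays were Agilent 1-colour rat gene expression arrays hybridised with total RNA from leukocytes sorted in a three-step magnetic bead procedure. The rats were females aged 15 weeks. Every rat, blood groups included, had been immunised with an autoantigen that induces autoimmune glomerulonephritis, and tissue was taken between days 30 and 35, so no group came from unimmunised animals. Further groups of 2 arrays each were the same pair of gates in WKY blood and in Lewis (LEW) blood, WKY blood pan T cells, and a WKY glomerular population labelled as macrophages. The titles of those last arrays also carry a sort tag that names pan T cells, against their population label. Their mean level was 1.47 and 1.18 over 22 macrophage genes and -0.67 and -1.62 over 21 T cell genes, the latter at 2.01 and 2.02 on the pan T arrays, and they were used as labelled. Whether the 2 arrays of a group stem from separate animals or pools is not labelled, so the p-values rest on a spread between arrays that may be only technical.

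RT1B is a rat MHC class II molecule, one of the membrane proteins that present peptides to CD4+ T cells. B cells, dendritic cells and activated macrophages are the cells best known for carrying it, and rat T cells can gain it on activation. CD8 exists as an alpha-beta heterodimer, typical of cytotoxic T cells, and as an alpha-alpha homodimer, found in rats on natural killer (NK) cells and on some myeloid cells. The title of the series names cells with the CD8 homodimer and MHC class II as antigen-presenting NK-like cells, and the glomerular sort addresses which genes separate such cells by their class II level at the site of inflammation.

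Promoters of 5 genes that separated the gates are shown here because they carry, in plain letters, short elements well known in the gene groups concerned. They are RefSeq sequences of the rat assembly GRCr8, upstream of the annotated start, written 5′ to 3′ on the strand of the gene. Blnk, a B cell adaptor protein, lies on the minus strand and its 250 bases are chr1:249770534-249770783. Fcmr, the Fc receptor for IgM, lies on the plus strand and its 120 bases are chr13:44889560-44889679. The 120 bases of the beta globin genes Hbb and Hbb-b1 are chr1:167663722-167663841 and chr1:167643521-167643640, and those of the alpha globin gene Hba-a1 are chr10:15842581-15842700, all on the minus strand. Capitals mark a match on either strand to the octamer ATGCAAAT in Blnk, to GAGGAA in Fcmr and to CCAAT in the globin genes. The 2 matches in Hbb adjoin without sharing a letter, so their capitals form a single run.
Blnk: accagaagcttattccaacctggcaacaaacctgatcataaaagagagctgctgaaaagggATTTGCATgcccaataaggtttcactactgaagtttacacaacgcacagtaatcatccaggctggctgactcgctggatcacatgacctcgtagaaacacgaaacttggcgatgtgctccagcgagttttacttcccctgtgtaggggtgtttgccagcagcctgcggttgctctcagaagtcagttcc
Fcmr: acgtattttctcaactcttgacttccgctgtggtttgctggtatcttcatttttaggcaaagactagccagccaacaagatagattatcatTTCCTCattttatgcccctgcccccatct
Hbb: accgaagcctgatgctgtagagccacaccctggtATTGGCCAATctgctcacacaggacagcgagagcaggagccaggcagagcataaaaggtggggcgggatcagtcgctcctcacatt
Hbb-b1: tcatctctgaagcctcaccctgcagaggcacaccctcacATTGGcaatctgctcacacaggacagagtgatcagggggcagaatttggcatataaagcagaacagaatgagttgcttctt
Hba-a1: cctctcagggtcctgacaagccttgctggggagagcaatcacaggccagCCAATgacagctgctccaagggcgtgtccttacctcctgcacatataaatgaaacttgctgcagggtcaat
The octamer, the letters bound by Oct factors in immunoglobulin promoters, begins 189 bases before the start of Blnk. It occurs in 1.56% of 33469 rat promoter windows of 250 bases, whereas GAGGAA, a core read by Ets factors such as Spib, occurs in 23.3% and CCAAT in 34.0%. Of the 78 named genes called between the gates, 62 have a promoter entry, and 51 of these were lower in RT1B+. Among those 51, the octamer was found in 2, GAGGAA in 10 and CCAAT in 21. Identity between the aligned 120 bases was 67.5% for Hbb and Hbb-b1, 55.6% for Hbb-b1 and Hba-a1, and 51.8% for Hbb and Hba-a1. A match is a run of letters and was not tested as a binding site.

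The value used for a gene, called its level here, is the log2 of the scanner software's processed signal minus the array's 75th percentile, so a level of 0 sits at that percentile. The raw 75th percentiles were 1980 and 1003 on the RT1B+ arrays and 471 and 1065 on the RT1Blow arrays, and 60.4% to 68.6% of the 58717 gene spots of the 4 arrays were well above background, against 57.3% to 68.6% over the series. RT1Blow arrays lay in columns 1 and 2 of the slide and RT1B+ arrays in columns 3 and 4, in blood as in glomeruli, so slide column and gate cannot be told apart. RT1Blow replicate 2 stood nearer to the other gate than its partner did. The SD of log2 differences over the genes tested was 0.682 between the RT1Blow arrays, 0.602 between the RT1B+ arrays, 0.722 and 0.687 between RT1Blow replicate 2 and the RT1B+ arrays, and 0.971 and 0.890 between RT1Blow replicate 1 and the RT1B+ arrays. At least 2-fold apart were 2441 genes between the RT1Blow arrays, and 2421 and 1990 between RT1Blow replicate 2 and the RT1B+ arrays. The counts the text leads with are also given without this array. Without it, the lists described below with no call had 1 gene called lower for macrophages, NK cells, class II, and glomerular endothelium and mesangium, and 2 for neutrophils and chemokines.

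The transcript of the gating molecule itself did not separate the gates. RT1-Bb, the beta chain of RT1B, had levels of 2.45 and 2.54 on the RT1B+ arrays and 1.56 and 3.16 on the RT1Blow arrays. The RT1Blow arrays bracketed the RT1B+ arrays, and the label of RT1Blow replicate 2, the highest of the 4, was not borne out by this transcript. The gate labels were taken as given throughout, and the mean difference was 0.14 ± 0.49 (log2, SE, n = 2 arrays per gate, adjusted p = 0.898). Here and below each SE was drawn from the spread within all 8 groups of the 16 arrays. It is therefore not the spread of the compared arrays alone. Without RT1Blow replicate 1 the difference was -0.67, and without RT1Blow replicate 2 it was 0.94. RT1-Ba, the alpha chain, was not well above background on both arrays of any group and was not tested. In WKY blood RT1-Bb was at 2.14 and 2.95 in RT1B+ and at 1.32 and 0.99 in RT1Blow, with a difference of 1.39 that did not pass the test either (adjusted p = 0.759). The gate difference of RT1-Bb in glomeruli minus that in WKY blood was -1.26 ± 0.69 (adjusted p = 0.77). Cd8a, the CD8 alpha chain, was at 3.0 and 3.14 in RT1B+ and 3.80 and 3.52 in RT1Blow, and Cd8b, the beta chain, at -2.29 and -2.93 against -1.88 and -1.06. Neither difference passed the test (-0.59 ± 0.32, adjusted p = 0.325, and -1.14 ± 0.55, adjusted p = 0.271). Klrb1a, which encodes an NK receptor, was at 2.98 and 2.56 in RT1B+ and 2.61 and 2.38 in RT1Blow, a difference of 0.27 (adjusted p = 0.598), and the NK receptor gene Ncr1 was at 0.83 and 0.17 against 1.83 and 0.56, a difference of -0.70 (adjusted p = 0.505). Cd3e, a T cell receptor chain, was at -1.37 and -2.29 in RT1B+, -1.31 and -0.47 in RT1Blow, and 2.18 and 2.64 on the pan T arrays.

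Between the gates, 118 of 18481 genes were called (0.638%), 30 higher in RT1B+ (0.162%) and 88 lower (0.476%). A call needed an adjusted p under 0.05 in limma (Benjamini-Hochberg over all genes tested), at least a 2-fold difference and a signal well above background on both arrays of at least 1 gate. A symbol was available for 78 of the called genes, 14 higher and 64 lower. The median difference over all genes was -0.15 (log2), and 60.0% of genes were lower in RT1B+, so directions below are to be read against that shift. The shift and the balance of calls moved with the scaling. With background correction by normexp the median was -0.34 and 41.2% of calls were higher, with quantile normalization 0.02 and 44.6%, and with the values of the deposited series matrix 0.03 and 35.7%, against 25.4% of calls higher here. Without RT1B+ replicate 1 the count was 13, without RT1B+ replicate 2 it was 9, without RT1Blow replicate 1 it was 13, and without RT1Blow replicate 2 it was 661, of which 102 were among the 118. In a fit of the 4 arrays alone no gene was called by limma (0, with 2754 at an unadjusted p under 0.05 and 3783 in the fit reported), and in a fit of the 8 arrays of the same slide 6 were called. Genes whose 4 arrays did not overlap between the gates were common in the background, 33.2% of all genes lower and 18.6% higher.

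**Figure D1:**
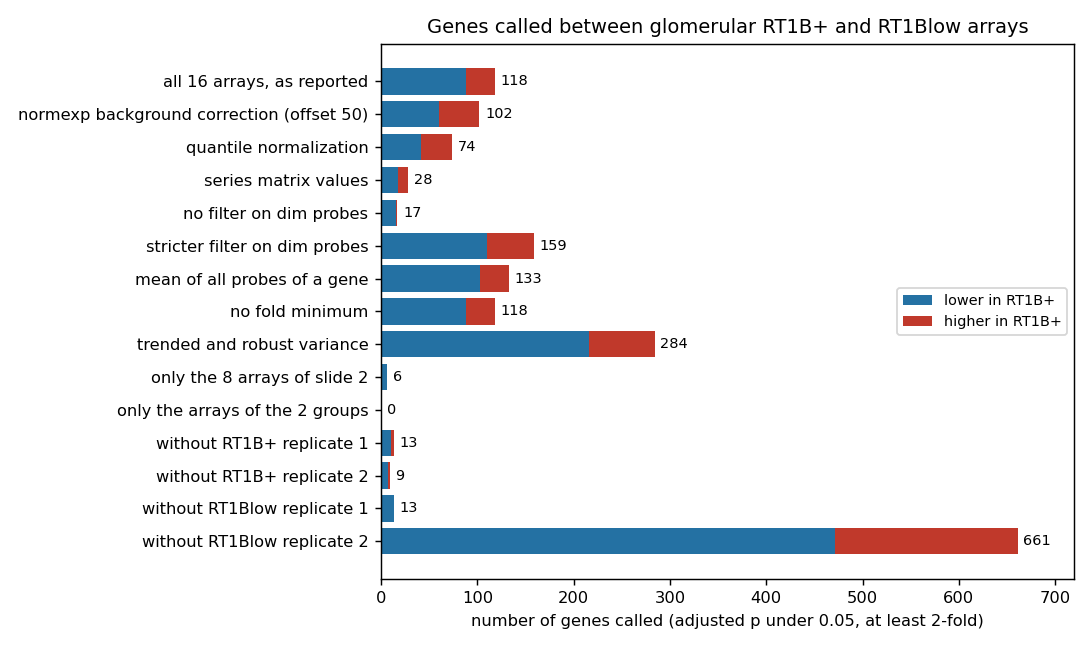
Number of genes called between the glomerular RT1B+ and RT1Blow arrays (horizontal axis, adjusted p under 0.05 and at least 2-fold) for each processing setting and each array left out (vertical axis), with the genes lower in RT1B+ in blue and those higher in red. The count is 118 as reported, 0 when the 2 groups are fitted alone and 661 without RT1Blow replicate 2.

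The 88 lower genes had a median difference of -2.60. Of these, 58 were well above background on both RT1B+ arrays, 15 on 1 and 15 on neither. In 64 of the 88 the level was higher on RT1Blow replicate 1 than on replicate 2, and in 24 the order was the reverse. The 30 higher genes had a smaller median difference, 1.34, and their largest was 2.80. All 30 were well above background on both RT1B+ arrays and 27 on both RT1Blow arrays.

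B cell genes lay lower on the glomerular RT1B+ arrays than on the RT1Blow arrays. Of 24 genes on a B cell list, 20 were tested and none was called higher. Called lower were 6, against 0.476% of all genes, among them Fcmr, Spib, Cd79b, Blnk and Blk. The number called lower was 4 with normexp, 3 with quantile normalization and 0 with the series matrix values, and 19 of the 20 lay lower in each of these. It was 2 without a filter on dim probes, 1 with the arrays of slide 2 only, and 0 with the 4 arrays alone. Those settings leave each gene's difference as it is, so they say nothing further on direction. The list's median difference was -1.75 against -0.15 over all genes. All but Cd72 were lower in mean, and 17 of these had no overlap between the gates, against 33.2% of all genes lower without overlap. In bulk samples such as these, fewer cells of a type and less RNA per cell cannot be told apart. The list was chosen with earlier results of these arrays known, so its direction is no independent evidence.

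Fcmr had levels of -4.42 and -5.56 on the RT1B+ arrays and -1.06 and -0.82 on the RT1Blow arrays. All 4 arrays were well above background, and the gates stood apart by more than either pair of replicates. The difference was -4.05 ± 0.40 (log2, SE), 16.5-fold, with an adjusted p of 0.00425. Spib, an Ets factor required in B cells and plasmacytoid dendritic cells, was at -4.86 and -5.15 in RT1B+ and at -1.87 and -0.05 in RT1Blow. Its RT1Blow arrays lay apart from each other, yet both exceeded both RT1B+ arrays, and the difference was -4.04 ± 0.54, also 16.5-fold (adjusted p = 0.0133). Cd79b, a signalling chain of the B cell receptor, was at -6.11 on each RT1B+ array, 1 of which was well above background, and at -1.90 and -3.86 in RT1Blow. The difference was -3.23 ± 0.52, 9.39-fold (adjusted p = 0.0321).

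Blnk and Blk were called lower as well. Blnk, the gene with the octamer in its promoter, was at -6.13 on each RT1B+ array and at -4.10 and -2.01 in RT1Blow, a difference of -3.08 ± 0.55 (adjusted p = 0.0376). Blk, a Src-family kinase of B cells, was at -6.55 and -6.01 in RT1B+ and at -4.23 and -4.53 in RT1Blow, a difference of -1.90 ± 0.34 (adjusted p = 0.0376). Blk was well above background on 1 RT1B+ array, with levels near the lowest such signal of each array (-6.51 and -5.98). For Blnk and Blk alike, both RT1Blow arrays lay above both RT1B+ arrays. Left out in the order RT1B+ replicates 1 and 2, RT1Blow replicates 1 and 2, the number of list genes called lower was 1, 1, 3 and 9. Fcmr passed each time, with adjusted p-values of 0.00748, 0.0254, 0.0148 and 0.00469. Spib gave 0.0661, 0.0983, 0.0112 and 0.0125, and Cd79b 0.123, 0.138, 0.0829 and 0.00195. Blnk gave 0.148, 0.144, 0.0112 and 0.0308, and Blk 0.161, 0.116, 0.21 and 0.0309.

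**Figure D2:**
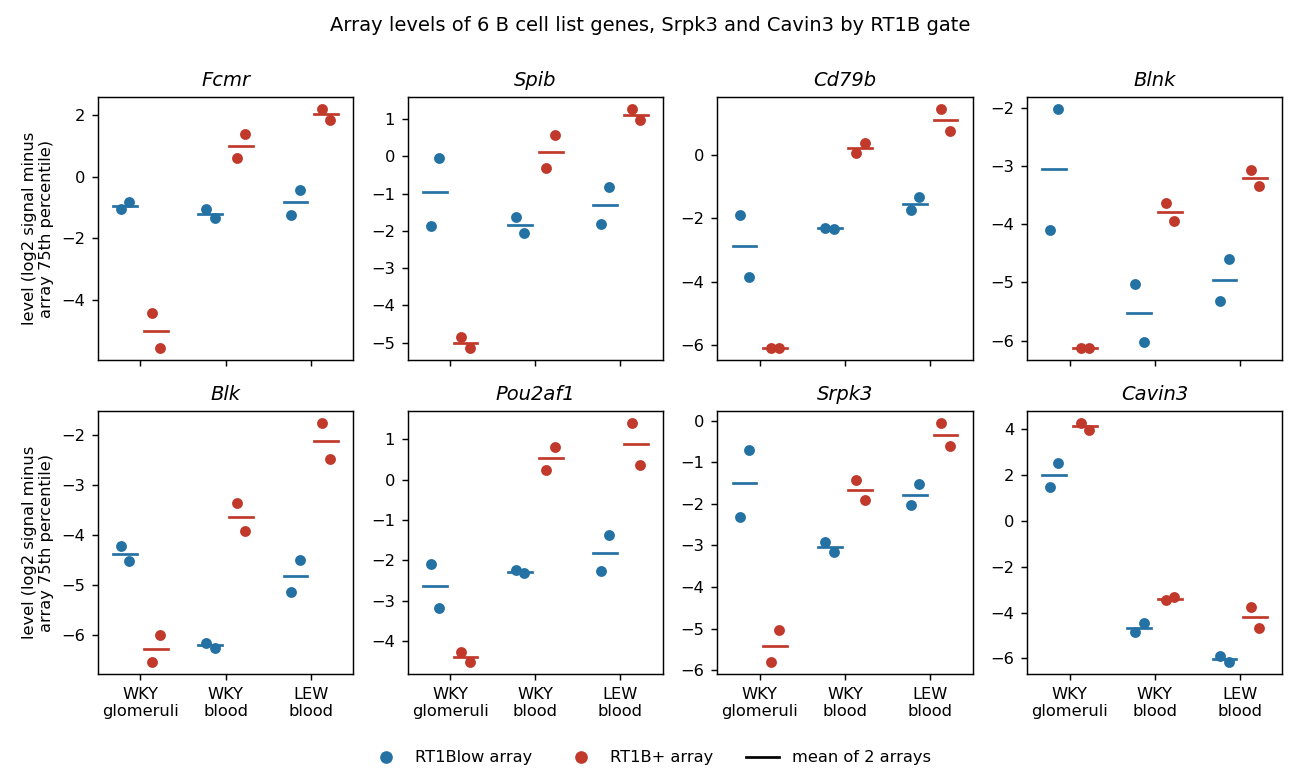
Levels of 6 B cell list genes, Srpk3 and Cavin3 on each CD8+ array (vertical axis, log2 signal minus the array's 75th percentile; horizontal axis, tissue and strain), with RT1Blow arrays in blue, RT1B+ arrays in red and a bar at the mean of 2 arrays. In glomeruli the RT1B+ arrays lie below the RT1Blow arrays for Fcmr (-4.42 and -5.56 against -1.06 and -0.82) and for the other 5 B cell genes and Srpk3, in blood they lie above, and for Cavin3 they lie above in all 3 panels of tissue and strain.

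Other B cell genes lay lower without passing the test. Btk, the kinase deficient in X-linked agammaglobulinaemia, differed by -1.82 (adjusted p = 0.0647), Cd22, an inhibitory co-receptor, by -1.63 (adjusted p = 0.0715) and Pou2af1, the B cell coactivator of Oct factors, by -1.76 (adjusted p = 0.089). Pax5, the factor that holds B cell identity, differed by -0.90 (adjusted p = 0.134). Cd72, an inhibitory B cell co-receptor, went the other way. Its levels were -0.28 and -0.16 in RT1B+ and -2.34 and -1.41 in RT1Blow, a difference of 1.65 ± 0.46 that missed the threshold (adjusted p = 0.0954). The mean level of the 20 genes was -4.87 and -4.77 on the RT1B+ arrays and -2.86 and -3.25 on the RT1Blow arrays. On the macrophage-labelled arrays it was -3.55 and -3.66, and on the pan T arrays -4.19 and -4.20, so the glomerular RT1B+ arrays were the lowest of these. Of 8 plasma cell genes none was called, and their median was 0.10.

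Srpk3 and Zp1, which are on no list, were among the lower genes with the smallest adjusted p-values. Srpk3, a kinase of the SR protein family known from muscle, was at -5.81 and -5.04 in RT1B+ and at -2.31 and -0.70 in RT1Blow, a difference of -3.92 ± 0.46 (adjusted p = 0.0075). Zp1, an egg-coat glycoprotein, was not well above background on either RT1B+ array, with measured levels of -8.74 and -7.76, and was at -4.23 and -4.09 in RT1Blow. It was at least 4.25-fold lower in RT1B+ (difference -4.09 ± 0.42, adjusted p = 0.00425), where the bound raises each dim signal to the lowest one well above background on its array. Zp1 was called under each array left out (adjusted p 0.0354, 0.00975, 0.0194 and 0.00525), and Srpk3 under 3 of 4 (0.057 without RT1B+ replicate 1). Bmf, a pro-apoptotic protein of the Bcl-2 family, was below that limit on both RT1B+ arrays and at -4.98 on each RT1Blow array, at least 2.41-fold lower (adjusted p = 0.0132), and with each array left out in the same order its adjusted p was 0.0599, 0.0971, 0.0765 and 0.0168. With normexp both calls were lost, at -1.53 for Zp1 (adjusted p = 0.0992) and -1.10 for Bmf (0.175). Besides Fcmr and Zp1, the genes called under each left-out array were 2 that carry no symbol, ENSRNOT00000048378 (difference -3.88 ± 0.35) and ENSRNOT00000050106 (-3.61 ± 0.37), each with an adjusted p of 0.00425.

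Globin genes had the largest differences among the called genes with a symbol. Hbb was at 0.20 and -2.36 on the RT1B+ arrays and at 3.63 and 5.58 on the RT1Blow arrays, a difference of -5.68 ± 0.99, 51.4-fold (adjusted p = 0.0376). Hbb-b1 was at -0.11 and -2.45 against 3.50 and 5.17 (-5.61 ± 1.01, 48.8-fold, adjusted p = 0.0378). Hba-a1 was at 1.69 and 0.22 against 5.03 and 6.64 (-4.88 ± 0.80, 29.5-fold, adjusted p = 0.0332). In all of them RT1Blow replicate 2 was the highest and RT1B+ replicate 2 the lowest of the 4 arrays, and the second probe of each gene differed by -6.16, -5.60 and -6.22. Near-identical globin genes can share probe signal, so the 3 are not independent readings. Of 10 erythroid genes tested these 3 were called lower, against 0.476% of all genes. In mean 8 lay lower, against 60.0% of all genes, and the list's median was -3.39. Hbb-bs (-4.86, adjusted p = 0.0693) and Alas2, the first enzyme of haem synthesis in red cell precursors (-4.25, adjusted p = 0.115), missed the threshold. In glomeruli the list's median was -1.85 with normexp, -3.07 with quantile normalization and -2.69 with the series matrix values. The number called lower was then 3, 2 and 0. No erythroid gene was called without a filter on dim probes, with the arrays of the same slide only or with the compared groups alone. The list's median was lower in RT1B+ in WKY blood too, at -4.30, and in LEW blood, at -6.69. Hbb was at 6.76 and 6.80 on the pan T arrays and 5.68 and 4.55 on the macrophage-labelled arrays, all above the glomerular RT1B+ arrays. Left out in the order above, the arrays gave Hbb adjusted p-values of 0.0547, 0.148, 0.078 and 0.0522, so its call was lost each time, as was that of Hbb-b1 (0.0661, 0.158, 0.11 and 0.0579). Hba-a1 kept its call without RT1Blow replicate 2 alone (0.0661, 0.144, 0.0659 and 0.0418).

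Lower calls outside the lists included Lilrc2, Rnase6, C3ar1 and Mefv. Lilrc2, an immunoglobulin-like receptor, was at -5.96 and -7.43 in RT1B+ and at -0.76 and -3.52 in RT1Blow, a difference of -4.55 ± 0.76, 23.5-fold (adjusted p = 0.0358). Rnase6, an antimicrobial ribonuclease, was at -5.70 and -6.00 against -1.74 and -1.65 (-4.16 ± 0.51, 17.9-fold, adjusted p = 0.0077). For each of them 1 RT1B+ array gave a signal well above background. C3ar1, the receptor for complement C3a, was not well above background on either RT1B+ array and was at -2.08 and -4.80 in RT1Blow, at least 7.0-fold lower (adjusted p = 0.0376), and at -1.82 with normexp, where the call was lost (adjusted p = 0.122). The RT1Blow arrays of Lilrc2 and C3ar1 stood far apart, replicate 1 above replicate 2, while those of Rnase6 lay together.

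Mefv, which encodes the inflammasome sensor pyrin, was at -1.93 and -1.21 in RT1B+ and at 2.64 and 0.95 in RT1Blow (-3.36 ± 0.56, 10.3-fold, adjusted p = 0.0358; its second probe differed by -1.30). Themis2, a signalling adaptor of B cells and macrophages, was at -3.02 and -2.46 against 0.87 and -0.23 (-3.06 ± 0.39, 8.35-fold, adjusted p = 0.00964). Pld4, an endolysosomal exonuclease that limits nucleic acid sensing, was at -4.68 and -3.88 against -0.63 and -1.84 (-3.05 ± 0.53, 8.26-fold, adjusted p = 0.0376). Cebpa, a transcription factor of myeloid differentiation, was 8.77-fold lower (adjusted p = 0.0484) and Layn, a hyaluronan receptor, 12.5-fold lower (adjusted p = 0.0077). Mybph, a myosin-binding protein, was also 12.5-fold lower (adjusted p = 0.0461), with at most 1 RT1B+ array well above background. The cytoskeletal gene Tagln3 and the taste receptor gene Tas2r125 were both not well above background in RT1B+. They were at least 2.87-fold and at least 2.34-fold lower (adjusted p = 0.0313 and 0.0376). Without RT1Blow replicate 1 the call was lost for 10 of the 11 genes of these 2 paragraphs, among them Lilrc2 (adjusted p = 0.124), Rnase6 (0.0543) and Themis2 (0.0602), and kept for Layn (0.0329). Without RT1B+ replicate 1 all 11 lost it (Layn 0.0547), and without RT1B+ replicate 2 all but Tagln3 (0.0469). Without RT1Blow replicate 2 all of them kept it, with adjusted p-values of 0.00195 to 0.0187.

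Of 22 macrophage and monocyte markers tested, none was called. Their median was -1.26 and 19 lay lower in mean, against 60.0% of all genes. The median was -0.84 without RT1B+ replicate 1 and -0.67 without RT1Blow replicate 2, where 1 gene was called lower. Adgre1, a macrophage adhesion receptor gene, was at -3.92 and -3.97 in RT1B+ and at 0.02 and -2.35 in RT1Blow (-2.78, adjusted p = 0.0934). Csf1r, the receptor for the macrophage growth factor, differed by -1.48 (adjusted p = 0.123). The complement genes C1qa, C1qb and C1qc had means 0.50, 0.41 and 1.0 higher in RT1B+, with adjusted p-values of 0.853, 0.87 and 0.678. The mean level of the list was -1.77 and -1.21 on the RT1B+ arrays, -0.38 and -0.47 on the RT1Blow arrays, and 1.47 and 1.18 on the macrophage-labelled arrays. All 9 neutrophil genes tested (median -1.58) and all 10 mast cell and basophil genes (median -1.01) lay lower in mean. Of all genes, 60.0% did. With quantile normalization or the series matrix values, 7 of the 9 and 9 of the 10 did. None of them was called. The chymase genes Cma1 (-8.46 and -7.38 against -4.33 and -1.70) and Mcpt1 (-7.89 and -6.83 against -4.18 and -1.42) came nearest, with adjusted p-values of 0.0587 and 0.0634. The part of other cell types in the differences called was not tested.

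**Figure D3:**
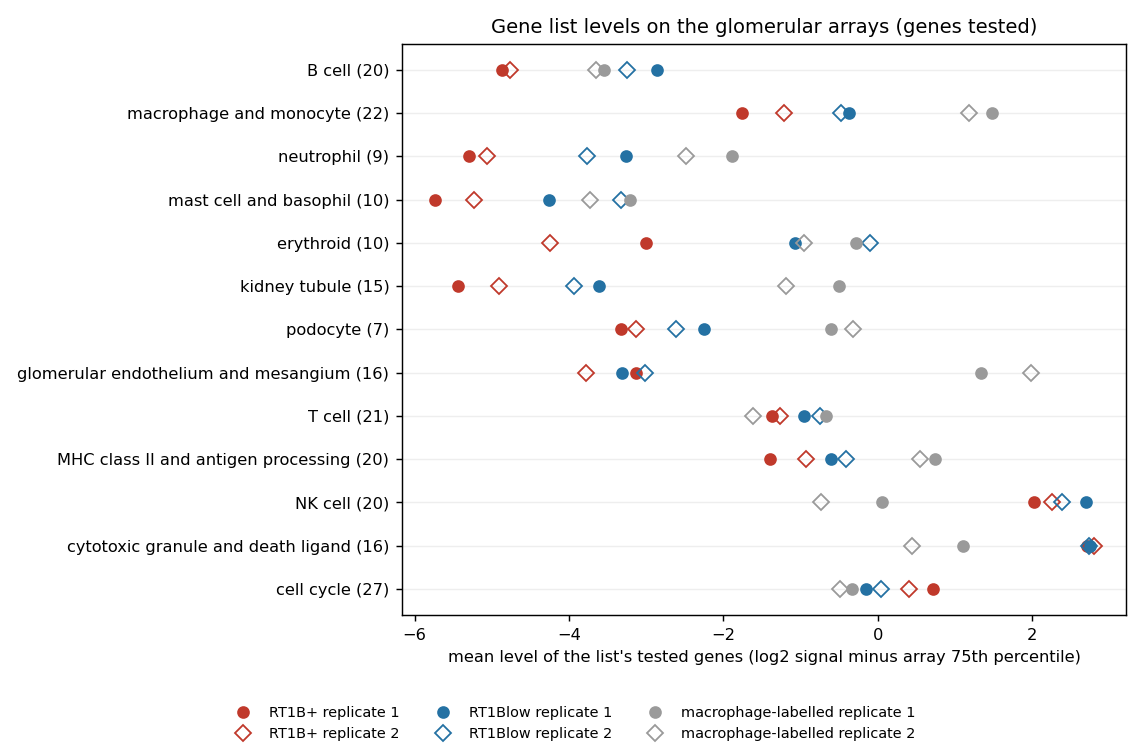
Mean level of the tested genes of 13 lists (vertical axis, number of genes in brackets) on each glomerular array (horizontal axis, log2 signal minus the array's 75th percentile), with RT1B+ in red, RT1Blow in blue and the macrophage-labelled population in grey. RT1B+ arrays lie below RT1Blow arrays for the B cell list (-4.87 and -4.77 against -2.86 and -3.25), and the 4 sorted arrays nearly coincide for cytotoxic granule genes (2.70 to 2.79).

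Of 15 tubule genes, Umod, the gene of uromodulin from the thick ascending limb, was called lower, against 0.476% of all genes. Its levels were -4.08 and -4.63 in RT1B+, -1.22 and -2.60 in RT1Blow, and -0.35 and 0.38 on the macrophage-labelled arrays (-2.44 ± 0.44, 5.44-fold, adjusted p = 0.0376). The tubule list had a median of -1.60, with mean levels of -5.44 and -4.91 in RT1B+, -3.61 and -3.94 in RT1Blow, and -0.50 and -1.19 on the macrophage-labelled arrays. The median was -0.97 with normexp, -0.90 with quantile normalization and -0.88 with the series matrix values. No tubule gene was called under any of these, nor without a filter on dim probes, with the arrays of the same slide only or with the compared groups alone. No podocyte gene of 7 (median -0.71) and no gene of 16 for glomerular endothelium and mesangium (median -0.29) was called. With normexp these medians were -0.77 and -0.59, with quantile normalization -0.20 and -0.08, and with the series matrix values -0.54 and -0.08. On the list for endothelium and mesangium, 1 gene was called lower with normexp and 1 higher with quantile normalization. Emcn, an endothelial sialomucin on this last list, was at -2.85 and -5.29 in RT1B+ and at -5.31 and -3.08 in RT1Blow, so its replicates lay apart in both gates. How far residual kidney cells bear on the gate differences was not tested. Without RT1Blow replicate 1 the call of Umod was lost (adjusted p = 0.201), as it was without either RT1B+ array (0.114 and 0.153).

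All 10 Fc receptor genes tested had lower means (9 of 10 with quantile normalization or the series matrix values), against 60.0% of all genes. Their median was -0.85, and Fcmr and Fcgr2b were called lower, against 0.476% of all genes. Fcgr2b, the inhibitory receptor for IgG of B cells and myeloid cells, was at 0.10 and 0.80 in RT1B+ and at 2.36 and 1.80 in RT1Blow (-1.63 ± 0.31, 3.08-fold, adjusted p = 0.0436; second probe -0.78). Fcgr2a, an activating IgG receptor, missed the threshold (-1.30, adjusted p = 0.0666). Fcgr3a, the IgG receptor of NK cells, was at 3.12 and 2.72 against 3.90 and 3.33 (-0.70, adjusted p = 0.606).

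Among 17 cytokine genes, Il22 was called lower, against 0.476% of all genes, and none higher. With normexp, quantile normalization or the series matrix values no gene of this list was called. Il22, a cytokine of type 3 lymphocytes that acts on epithelia, was at -6.30 and -5.55 in RT1B+ and at -3.91 and -3.97 in RT1Blow (-1.99 ± 0.37, 3.96-fold, adjusted p = 0.0419), and 1 RT1B+ array was well above background for it. Il17a, a related type 17 cytokine, was at -2.91 and -1.90 against -0.09 and -0.54 (-2.09, adjusted p = 0.117), and Ahr, a transcription factor that promotes Il22, differed by -1.49 (adjusted p = 0.0921). In each of these the gates did not overlap, which held in this direction for 33.2% of all genes. Ifng, the gene of interferon gamma, was at 4.50 and 4.16 in RT1B+ and 4.12 and 4.21 in RT1Blow (0.16, adjusted p = 0.834). None of 21 chemokine genes was called, and their median was -0.60. It was -0.75 with normexp, -0.17 with quantile normalization and -0.28 with the series matrix values. Cd4 was the called gene of 21 T cell genes, at -5.80 and -6.11 in RT1B+ and at -2.47 and -3.59 in RT1Blow. The difference was -2.92 ± 0.51 (7.59-fold, limma adjusted p = 0.0376), and Cd4 was at -0.59 and -0.75 on the pan T arrays. At most 1 RT1B+ array was well above background for Cd4. Its call was lost with normexp (-1.79, adjusted p = 0.0875), quantile normalization (-2.58, adjusted p = 0.0547) and the series matrix values (-2.73, adjusted p = 0.0854). Monocytes of the rat carry CD4 as well as helper T cells do. The calls of Il22, Fcgr2b and Cd4 were lost without RT1B+ replicate 1, RT1B+ replicate 2 or RT1Blow replicate 1 (adjusted p between 0.0971 and 0.26) and kept without RT1Blow replicate 2 (0.0481, 0.025 and 0.016).

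Cytotoxic and NK genes did not pass the test between the gates. None of 20 NK genes was called, with a median of -0.51 that was -0.26 with quantile normalization, -0.04 with the series matrix values, and -0.29 without RT1B+ replicate 1 and -0.28 without RT1Blow replicate 1, and none of 16 granule and death ligand genes, with a median of 0.07. Gzmb, which encodes granzyme B, was at 6.32 and 6.18 in RT1B+ and 5.67 and 5.98 in RT1Blow (0.42 ± 0.41, adjusted p = 0.58). Prf1, the gene of perforin, was at 7.0 and 7.31 against 7.27 and 6.40 (0.32 ± 0.43, adjusted p = 0.701). Tyrobp, an adaptor of activating NK and myeloid receptors, was at 7.2 and 7.59 against 7.97 and 7.79 (-0.48 ± 0.33, adjusted p = 0.431). The mean level of the granule list lay between 2.70 and 2.79 on all 4 arrays. A p that misses the threshold with 2 arrays per gate does not show that the gates are alike.

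Class II and antigen presentation genes did not pass the test in either direction. None of 20 tested was called, and 16 had a lower mean, against 60.0% of all genes. No overlap was found for 9, all of these lower in RT1B+, against 33.2% of all genes lower without overlap. The list median was -0.62. It was -0.69 with normexp, -0.33 with quantile normalization and -0.46 with the series matrix values, and ran from -0.90 to -0.33 with 1 array left out. Cd74, the invariant chain, was at 3.59 and 4.11 in RT1B+ and 4.01 and 4.42 in RT1Blow (-0.37 ± 0.40, adjusted p = 0.623). Ciita, the master regulator of class II transcription, was at -3.93 and -4.19 against -3.82 and -3.64 (-0.33 ± 0.29, adjusted p = 0.551), and RT1-Da, the alpha chain of the other class II molecule, at 1.11 and 1.58 against 1.39 and 2.41 (-0.56, adjusted p = 0.463). RT1-Db1, its beta chain, differed by -0.28 (adjusted p = 0.728), and by 0.06 without RT1B+ replicate 1 and 0.17 without RT1Blow replicate 2. Cd40, a receptor by which antigen-presenting cells take T cell help, was at -2.12 and -1.23 against 1.43 and -0.27 (-2.25 ± 0.50, adjusted p = 0.0643).

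Cell cycle genes went the opposite way to most lists. Of 27 tested, 25 had a higher mean in RT1B+, 23 of them with no overlap, against 18.6% of all genes higher without overlap. The median was 0.66, and none of the 27 was called. Mcm4 and Mcm6, subunits of the replicative helicase, came nearest. Mcm4 was at 2.63 and 2.75 in RT1B+ and 1.62 and 1.84 in RT1Blow (0.96 ± 0.25, adjusted p = 0.0839), and Mcm6 differed by 0.88 (adjusted p = 0.0969). Mki67, which marks cycling cells, was at 2.84 and 2.23 against 1.65 and 2.15 (0.63 ± 0.35, adjusted p = 0.333). With each glomerular array left out the list's median stayed between 0.50 and 0.84. In WKY blood it was 0.37 and in LEW blood -0.14.

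**Figure D4:**
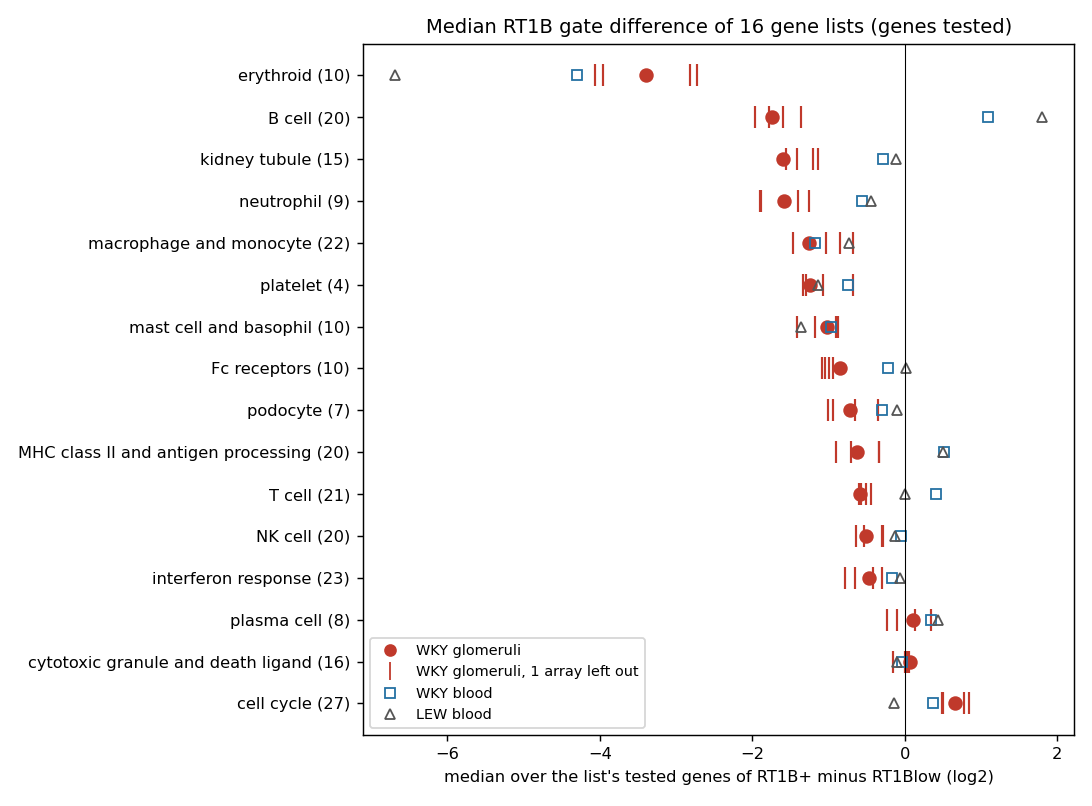
Median of the log2 difference RT1B+ minus RT1Blow over the tested genes of 16 lists (horizontal axis; number of genes in brackets on the vertical axis). Filled circles stand for WKY glomeruli, ticks for WKY glomeruli with 1 array left out, squares for WKY blood and triangles for LEW blood. The B cell list lies at -1.75 in glomeruli and at 1.09 and 1.80 in blood, and the erythroid list is negative in all 3.

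The 14 named genes called higher in RT1B+ formed no single group. Cavin3, a coat protein of caveolae, was at 4.28 and 3.96 in RT1B+ and at 1.47 and 2.51 in RT1Blow (2.13 ± 0.36, 4.37-fold, adjusted p = 0.0358), and at 4.78 on each macrophage-labelled array. It was the 1 called gene of 8 caveolar coat genes, and Cavin2, another coat protein, was at 5.60 and 6.05 against 6.49 and 6.50 (-0.67 ± 0.23, adjusted p = 0.138). The list's median was 0.08, and -0.47 with normexp background correction. Dclk1, a microtubule-associated kinase, was at 0.75 and 0.26 in RT1B+ and at -2.03 and -1.01 in RT1Blow (2.02 ± 0.39, 4.06-fold, adjusted p = 0.0445), and its second probe differed by 1.59. Its relative Dclk2 differed by -0.82 (adjusted p = 0.273). Cyp11b1, a steroid hydroxylase of the adrenal cortex, was at -4.55 and -4.21 in RT1B+ and not well above background in RT1Blow, at least 2.86-fold higher (adjusted p = 0.031; 0.10 on the log2 scale with normexp, adjusted p = 0.89), and at -2.12 and -2.60 on the macrophage-labelled arrays. For all of these the call was lost without RT1B+ replicate 1, RT1B+ replicate 2 or RT1Blow replicate 1. Cavin3 then had adjusted p-values of 0.148, 0.133 and 0.172, Dclk1 0.189, 0.138 and 0.271, and Cyp11b1 0.0833, 0.138 and 0.148. Without RT1Blow replicate 2 the values were 0.00565, 0.0148 and 0.0177.

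The other 11 named genes called higher have varied roles. Thoc1, a subunit of the THO complex that couples transcription to mRNA export, was at 0.61 and 0.76 in RT1B+ and at -0.81 and -0.91 in RT1Blow (1.54 ± 0.20, 2.91-fold, adjusted p = 0.0105). Its replicates lay close together in both gates. None of the other 11 genes on the export list passed the test, and the list's median was 0.20. Supt16h, a subunit of the histone chaperone FACT, was at -1.46 and -2.21 against -3.39 and -3.28 (1.5 ± 0.25, 2.82-fold, adjusted p = 0.0362), while its partner Ssrp1 differed by 0.37 (adjusted p = 0.358). Yars2 and Eprs1, which charge transfer RNAs, were 2.73-fold and 2.01-fold higher (adjusted p = 0.0417 and 0.0402), and Eif2b3, a subunit of the exchange factor of translation initiation, 2.09-fold (adjusted p = 0.0376). Nup93, a nuclear pore scaffold protein, was 2.0-fold higher and lay at the fold minimum (adjusted p = 0.0445). The chaperone gene Hspa14 was 2.08-fold higher (adjusted p = 0.0393) and Prelid3b, a mitochondrial lipid transfer protein, 2.11-fold (adjusted p = 0.0402). Cdk2ap1, an inhibitor of a cell cycle kinase, was at 3.71 and 3.32 against 2.07 and 2.10 (2.71-fold, adjusted p = 0.0344). Zmiz1, a transcriptional coregulator, was 2.43-fold higher (adjusted p = 0.0436), with a second probe at -0.17, and Tmem107, a protein of the ciliary base, 2.52-fold (adjusted p = 0.0212), with other probes at 2.05 and 0.42. Without RT1Blow replicate 1 the call was lost for all 11 genes of this paragraph (Thoc1 0.0543, Supt16h 0.172), and without RT1B+ replicate 1 as well (0.0547 and 0.145). Without RT1B+ replicate 2 only Supt16h of the 11 kept it (0.0469), and without RT1Blow replicate 2 all but Hspa14 (0.056) and Nup93 (0.0522) did.

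In blood the same gate went the other way for B cell genes. The difference between tissues was tested as the glomerular gate difference minus that in WKY blood, each taken within 1 slide. The CD8+ arrays of blood lay on the other slide from those of glomeruli. Tissue and slide therefore cannot be told apart, here or where levels in blood and glomeruli are set side by side. In this test 19 of 18481 genes were called (0.103%), all of them lower in the glomerular contrast. Of these, 10 have a symbol. A negative difference in glomeruli was seen in 19, a positive one in WKY blood in 18 and a positive one in LEW blood in 19. The LEW arrays are not part of this contrast but entered its estimate of the spread. Over all genes the median gate difference was -0.06 in WKY blood and -0.07 in LEW blood. In their own right the blood gates gave 13 calls in WKY (0.0703%), with 6 higher in RT1B+ (0.0325%) and 7 lower (0.0379%), and 11 in LEW (0.0595%), with 7 higher (0.0379%) and 4 lower (0.0216%). Across genes, which are not independent replicates, the gate differences correlated at 0.28 between glomeruli and WKY blood, at 0.18 between glomeruli and LEW blood and at 0.52 between the strains' blood (n = 18480 genes, with no test).

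Fcmr was at 0.59 and 1.39 in WKY blood RT1B+ and at -1.05 and -1.35 in RT1Blow, and at 2.20 and 1.84 against -1.25 and -0.42 in LEW blood. Glomerular RT1Blow, at -1.06 and -0.82, lay among the blood RT1Blow and pan T arrays (-1.15 and -1.12), and glomerular RT1B+ lay below all other groups. The difference between tissues was -6.24 ± 0.56 (adjusted p = 0.00132). Cd79b was at 0.06 and 0.38 against -2.29 and -2.32 in WKY blood, and its difference between tissues was -5.76 ± 0.73 (adjusted p = 0.0129). Spib was at -0.32 and 0.57 against -1.62 and -2.06, with a difference of -6.01 ± 0.77 (adjusted p = 0.0129).

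Blk differed between tissues by -4.47 ± 0.48 (adjusted p = 0.00413) and Pou2af1 by -4.56 ± 0.67 (adjusted p = 0.028). Blk was also called higher in RT1B+ in both blood comparisons, at 2.57 in WKY and 2.71 in LEW (adjusted p = 0.0368 and 0.0345). Blnk missed the threshold between tissues (-4.81 ± 0.78, adjusted p = 0.0569). In all, 6 of the 20 B cell genes were called in this test, against 0.103% of all genes. The list was chosen with earlier results of these arrays known, so this count is no independent evidence. Its median gate difference was 1.09 in WKY blood and 1.80 in LEW blood. Ciita, called higher in WKY blood RT1B+ (1.98, adjusted p = 0.046), did not pass between tissues (-2.31 ± 0.42, adjusted p = 0.104). Genes called higher in glomerular RT1B+ gave no call here. Cavin3 was 1.26 higher in WKY blood RT1B+ and 1.84 in LEW, at levels of -3.46 and -3.33 against -4.85 and -4.47 in WKY, and its difference between tissues was 0.86 ± 0.51 (adjusted p = 0.786). For Thoc1 it was 1.46 ± 0.28 (adjusted p = 0.138) and for Dclk1 1.73 ± 0.55 (adjusted p = 0.515).

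The count of 19 moved with the array left out. It was 7 without glomerular RT1B+ replicate 1, 11 without RT1B+ replicate 2, 15 without RT1Blow replicate 1 and 39 without RT1Blow replicate 2, and between 16 and 19 with a blood array left out. Of the latter, 13, 12, 13 and 10 were among the 19, in the order blood RT1B+ replicates 1 and 2, RT1Blow replicates 1 and 2, and 1, 3, 3 and 8 of the calls were higher in the glomerular contrast. Myeloid and globin genes did not enter it: Hbb differed between tissues by -1.69 ± 1.40 (adjusted p = 0.854), and no gene of the macrophage or erythroid lists was called.

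**Figure D5:**
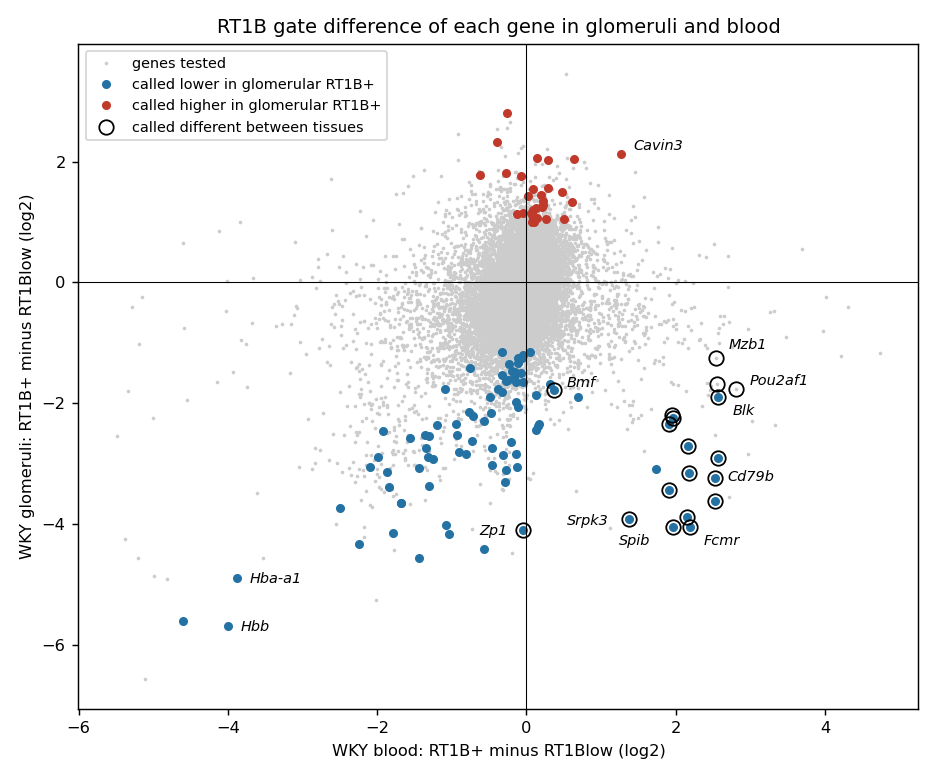
Log2 difference RT1B+ minus RT1Blow of each gene in WKY blood (horizontal axis) and in WKY glomeruli (vertical axis), with genes called in glomeruli in blue (lower) or red (higher), genes called different between the tissues circled, and all genes tested in grey. The circled B cell genes lie at the lower right (Fcmr at 2.19 in blood and -4.05 in glomeruli) and the globin genes at the lower left (Hbb at -3.99 and -5.68).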

How the data were processed

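Per the file headers, the 16 deposited files are Agilent 1-colour scans read with Feature Extraction 11.0.1.1, and the processed signal is a linear intensity from which that software had subtracted background, with no normalization between arrays. The design text describes Illumina arrays, which the files contradict, so the files were followed. The deposited series matrix holds log2 values with a median of 7.91 in every array, which were used as an alternative; how the authors centred them is not given in the sources used here.

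Levels are log2 processed signal minus the array's 75th percentile, without control spots and outlier flags. The brightest probe stands for a gene. Symbols came through RefSeq accessions of the GRCr8 annotation, which matched for 18347 of 30367 probes (60.4%). Genes well above background on both arrays of at least 1 group were tested (18481). In limma 3.58.1 (R 4.3.3; package data.table in version 1.17.8) a mean was fitted for each of the 8 groups over all 16 arrays, and the procedure was tested on simulated data. Figures used Python 3.11.15 and matplotlib 3.10.9. Genes were named by size of change (up to 20 in each direction), from 25 gene lists, as label checks, from the difference between tissues, or as called under every left-out array. Counts cover every gene tested, of which 1 is not reported here by name. The members and lists were chosen with earlier results of these data known. The normexp alternative used median spot signals with an offset of 50, since the files hold no means. Saturated spots numbered 0 on every array; precision is limited by having 2 arrays per group. The other alternatives were quantile normalization, no filter or a stricter one on dim probes, averaging the probes of a gene, dropping the fold minimum, a robust trended variance, fits on fewer arrays, and leaving out single arrays.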

Additional observations from a re-analysis of the deposited data

Results flagged for a closer look

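The gate difference in glomeruli departed from that in WKY blood for 9 genes named here, by a limma test of the difference itself, and all 9 were lower in the glomerular contrast. The differences (log2, SE) were -6.24 ± 0.56 for Fcmr (adjusted p = 0.00132), -6.01 ± 0.77 for Spib (0.0129), -5.76 ± 0.73 for Cd79b (0.0129), -5.29 ± 0.65 for Srpk3 (0.0124) and -4.56 ± 0.67 for Pou2af1 (0.028). They were -4.47 ± 0.48 for Blk (0.00413), -4.04 ± 0.59 for Zp1 (0.028), -3.79 ± 0.54 for Mzb1 (0.0272) and -2.15 ± 0.34 for Bmf (0.0487). Mzb1, a plasma and marginal zone B cell protein, was called higher in WKY blood RT1B+ (2.54) and was well above background on 1 glomerular RT1Blow array and on no RT1B+ array there, so its value is no measured size either. Zp1 and Bmf were not well above background in either gate of WKY blood or in glomerular RT1B+, so their values here rest on signals near background and are no measured size. Groups of 2 arrays were too small for a check of single outlying arrays.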

How the results depend on the processing

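Of the 78 named genes called between the glomerular gates, no direction reversed over 1069 values under alternatives (0), and the call was kept in 451 and lost in 618. Most of these values could not reverse. Changing the filter, the fold minimum, the variance or the other groups fitted leaves a gene's difference as it is. No called gene overlapped between the gates, so leaving out 1 array could not reverse it either. Only normexp, quantile normalization, the series matrix values and the mean of all probes could. Dropping the fold minimum could not lose a call. The count of 118 became 17 without a filter on dim probes, 74 with quantile normalization, 28 with the series matrix values, 284 with a trended and robust variance, 6 with the arrays of slide 2 only, 0 with the 4 arrays alone, and 9 to 661 with 1 array left out; normexp gave 102, a stricter filter 159 and the mean of all probes 133. A lone array is then assumed to vary like the other groups. The count of 19 between tissues became 11 with normexp, 29 with quantile normalization (10 higher and 19 lower), 10 with the stricter filter, 3 with the 8 WKY CD8+ arrays only, and 7 to 39 with 1 array left out. The uncalled RT1-Bb difference turned to -0.16 with the mean of all probes and ran from -0.67 (without RT1Blow replicate 1) to 0.94 (without RT1Blow replicate 2) with 1 array left out, and that of RT1-Db1 ran from -0.73 (without RT1Blow replicate 1) to 0.17 (without RT1Blow replicate 2), with 0.06 without RT1B+ replicate 1. The cause of these changes was not tested. No paired analysis was possible because the labels give no replicate numbers. Genes near background, such as Zp1 in RT1B+, have a bound in place of a level.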
